A study of Mus musculus with 20 samples.

Results

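The DOCK exchange factors were followed in visceral adipose tissue (VAT) of mice: 9 genes, Dock1, Dock2, Dock4, Dock5, Dock6, Dock8, Dock9, Dock10 and Dock11, of 37074 gene names on the array. They were taken by gene name. The family was picked because the Dock8 signal was higher in both high-fat groups than in the Ref group, so the Dock8 values against Ref are given as a description, without a test. The other 8 genes were chosen by family, not by their values. Together the 9 genes had 41 probes of 60 bases. Of these, 35 passed the filter on dim probes, which required a signal well above background on at least 6 arrays, and every gene kept at least 1 probe.

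The tissue came from 20 male F3 mice of the C57bl/6J strain, with 1 one-colour array per mouse. Ref mice (n = 6) and HFoleic mice (n = 6) descended from the oleic control lineage, whose 3 generations received an oleic-rich sunflower oil, and HFepa mice (n = 8) from a lineage given fish oil rich in eicosapentaenoic acid (EPA), an omega-3 fatty acid. Ref mice ate a low-fat diet, while HFoleic and HFepa mice were fed the high-fat, high-sucrose obesogenic diet. HFepa and Ref mice thus differed in both diet and lineage, HFepa and HFoleic mice in lineage only. The 20 arrays include no EPA-lineage mice on the low-fat diet, so diet and lineage cannot be told apart in HFepa vs. Ref. The design of the series names 8 mice per group. The paper reports that only RNA above an integrity cutoff went onto arrays, which left fewer Ref and HFoleic than HFepa mice. The age of the mice is not given in the sources used here, and whether mice of a group were littermates was not given either. All 7 adipocyte markers and all 8 macrophage markers gave signal well above background on each of the 20 arrays.

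DOCK proteins switch on small GTPases such as Rac and Cdc42, which drive remodelling of the actin skeleton, cell migration and uptake of particles. They load the GTPase with GTP through a catalytic domain of their own kind, unlike the Dbl family of exchange factors. Dock1, Dock2 and Dock5 work with ELMO adaptors and activate Rac, Dock4 acts on Rac and Rap1, Dock6 and Dock8 belong to a subfamily that acts on Rac and Cdc42, and Dock9, Dock10 and Dock11 act on Cdc42. Dock2 and Dock8 are known chiefly from leukocytes, where Dock2 drives migration through Rac and Dock8 acts through Cdc42. Loss of DOCK8 in people causes an immunodeficiency.

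Apart from Dock8, 4 of the other 8 genes were called in HFoleic vs. Ref (adjusted p under 0.05), Dock2, Dock5 and Dock10 with higher and Dock11 with lower signal in HFoleic mice. Over all 25619 genes tested, 31.8% were called in this comparison, 15.2% higher and 16.7% lower. In HFepa vs. Ref none of these 8 was called, against 2.46% of all genes, and 3 of them had an unadjusted p under 0.05, as had 21.5% of all genes. In HFepa vs. HFoleic none of the 9 was called and 3 had an unadjusted p under 0.05, against 20.8% of all genes. There, too, 0 of all genes were called by the probe reported for the gene. The median log2 fold change of the 9 genes was 0.19 in HFoleic vs. Ref, 0.24 in HFepa vs. Ref and 0.05 in HFepa vs. HFoleic, beside −0.04, −0.02 and 0.01 over all genes. Each gene is reported by its brightest probe, values are log2 intensities after quantile normalization, and tests are those of limma, with p-values adjusted by Benjamini-Hochberg over every probe tested.

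**Figure D1:**
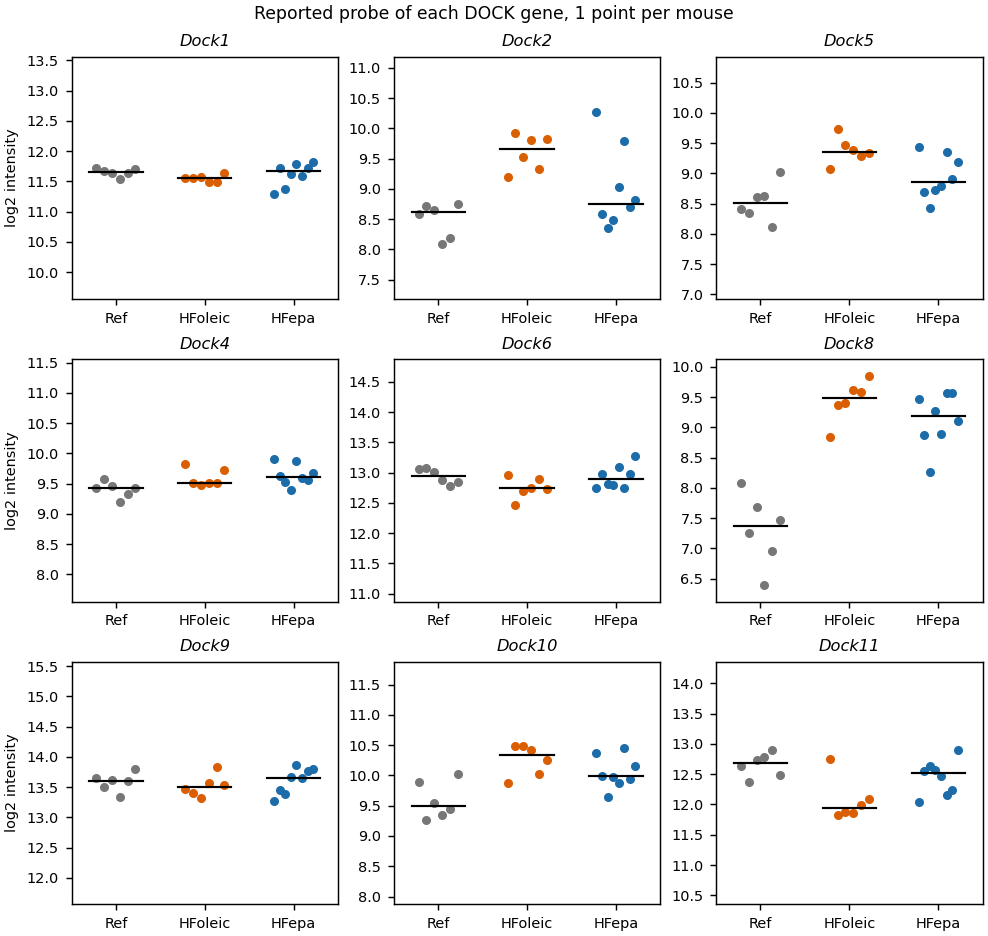
Log2 intensity of the reported probe of each DOCK gene (vertical axis, spanning the same number of log2 units in each panel) in Ref, HFoleic and HFepa mice. Each point is a mouse and each bar a group median. Dock8 was above all Ref mice in every HFoleic and HFepa mouse, while Dock2 in HFepa mice spread from 8.36 to 10.27.

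The sequences below are those of probes that the results turn on, read from the array files and written 5′ to 3′ without capitals. They show which stretch of each transcript the signal reports. Of the probes near the 3′ end of a transcript the first 30 bases are given, of the others all 60. The Dock8 probes A_51_P483511 (mm9 chr19:25275989-25276048, plus strand) and A_55_P2728718 (mm9 chr19:25169994-25170053, plus strand) start at bases 6876 and 1268 of NM_028785. The Dock2 probes A_66_P108087 (mm9 chr11:34127093-34127152, minus strand) and A_66_P138212 (mm9 chr11:34502033-34503249, minus strand) start at bases 6084 and 2076 of NM_033374. The second spans 1217 genomic bases with its 60, so it crosses at least 1 exon junction. The Dock10 probe A_55_P2012849 (mm9 chr1:80564572-80564631, minus strand) starts at base 2628 of NM_001285927.
Dock8 A_51_P483511: aaccattttccaatatatctgtgagaaaaa
Dock8 A_55_P2728718: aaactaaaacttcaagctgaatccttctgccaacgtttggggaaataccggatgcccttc
Dock2 A_66_P108087: tcccaggatgggaggcagcccaggggacta
Dock2 A_66_P138212: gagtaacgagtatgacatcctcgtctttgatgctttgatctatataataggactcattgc
Dock10 A_55_P2012849: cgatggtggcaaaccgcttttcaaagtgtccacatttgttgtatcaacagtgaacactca

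Dock8 was low in Ref mice and higher in both high-fat groups. Its brightest probe, A_51_P483511, read 6.40 in the lowest Ref mouse, 7.37 at the Ref median and 8.08 in the highest. HFoleic mice read 8.84, 9.49 and 9.84 at the same ranks. HFepa mice read 8.27, 9.19 and 9.57. Neither high-fat group overlapped with Ref, while the high-fat groups overlapped with each other over most of their range. Higher values without overlap were found for 6.92% of all genes in HFoleic vs. Ref and 0.371% in HFepa vs. Ref. The nearest values across the gap were those of Ref mouse 2 (8.08) and HFepa mouse 3 (8.27). By size of the log2 fold change, Dock8 was number 88 from the top of 25619 genes in HFoleic vs. Ref and number 15 in HFepa vs. Ref, which describes the values it was chosen by. Both rankings rest on the same 6 Ref mice.

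Between the high-fat groups, a contrast that the choice of Dock8 did not use, the difference was small against its error. HFepa was lower than HFoleic by a log2 difference of −0.31 (SE 0.24, adjusted p = 0.476), with a 95% interval from −0.80 to 0.18. The other tested Dock8 probes differed by −0.04 to −0.17 between these groups, with adjusted p from 0.399 to 0.910. This interval does not show that the lineages were alike.

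The size of the Dock8 difference from Ref depended on the probe. The brightest probe differed by 2.13 in HFoleic and 1.82 in HFepa. Probe A_65_P17641, designed to the cDNA AK170538, differed by 1.02 and 0.85. Probe A_55_P2728718, whose sequence from the inner part of NM_028785 is shown above, differed by 0.83 and 0.79, and its group values did not overlap with Ref in either high-fat group. The dimmest tested probe, A_52_P519673 (AK038285), rose well above background on none of the 6 Ref arrays, on 6 of 6 for HFoleic and on 6 of 8 for HFepa. For this probe the Ref level was not resolved. With each Ref value raised to at least the lowest detected signal of its array, the mean was 1.38-fold higher in HFoleic and 1.24-fold higher in HFepa. HFepa values were kept as measured there, also on arrays not well above background, and the ratios carry no error. The measured means were 5.34, 5.84 and 5.69 in Ref, HFoleic and HFepa mice, and HFepa values overlapped with Ref. On the 3 slides the brightest probe differed from Ref by 1.76, 2.44 and 2.17 in HFoleic and by 1.48, 2.31 and 1.60 in HFepa. The 3 probes whose Ref level was resolved had higher means in both high-fat groups, which describes the same samples that Dock8 was chosen on. The dimmest probe passed the filter only through the high-fat arrays.

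**Figure D2:**
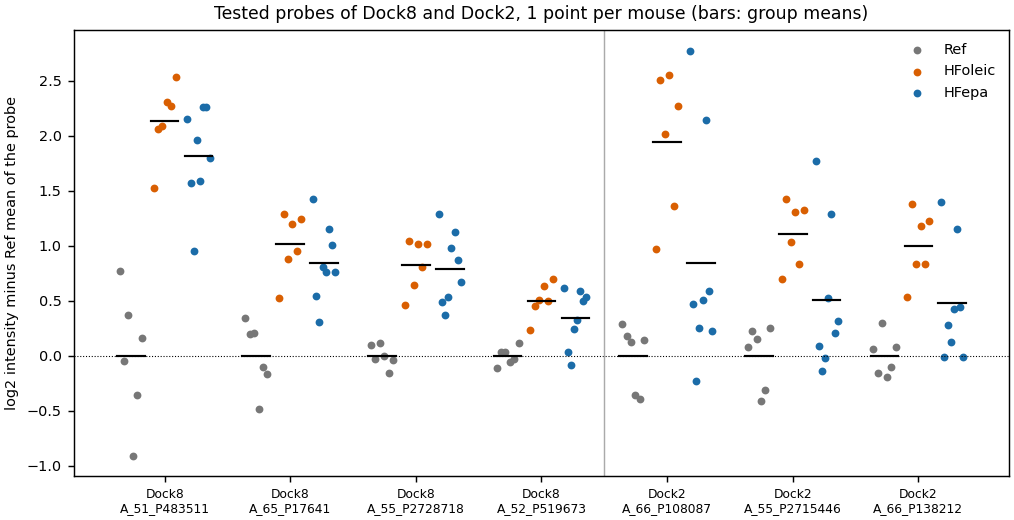
Log2 intensity of each mouse minus the Ref mean of the probe (vertical axis) for the 4 tested Dock8 and the 3 tested Dock2 probes, ordered within a gene by the HFoleic difference. Points are mice and bars group means. The Dock8 bars of HFoleic and HFepa lie close together, while the Dock2 bars of HFepa lie near the middle between Ref and HFoleic with 2 mice, HFepa 1 and HFepa 6, far above the other 6.

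Dock8 lies on chromosome 19. The nearest protein-coding genes with a tested probe on either side were not called in HFoleic vs. Ref or HFepa vs. Ref. Cbwd1, the direct neighbour on the side of lower coordinates, differed by 0.21 in HFoleic vs. Ref (SE 0.084, adjusted p = 0.0629) and 0.13 in HFepa vs. Ref (adjusted p = 0.357). Kank1, which regulates actin at cell adhesions and has 1 protein-coding gene between itself and Dock8, differed by −0.18 (adjusted p = 0.154) and −0.17 (adjusted p = 0.264).

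The 5 genes whose log2 intensity ran closest to that of Dock8 over the 20 arrays were Ptchd4 and Eda2r (Pearson r = 0.96 each), Gm11627 (r = 0.95), Adh4 and Map1a (r = 0.94 each). Ptchd4 has a patched domain, Eda2r is a receptor for an ectodysplasin isoform, Adh4 is an alcohol dehydrogenase and Map1a binds microtubules. Their log2 fold changes were between 0.94 and 1.77 in HFoleic vs. Ref and between 0.79 and 1.34 in HFepa vs. Ref. Like Dock8, each kept most of its difference from Ref in the EPA lineage, which the likeness itself entails. After each group mean was subtracted, the closest were Gm8350 (r = 0.92), Dsel and Ptchd4 (r = 0.91 each), Fam114a1 (r = 0.89) and Pcolce2 (r = 0.87). Ptchd4 was thus in both lists. These correlations describe 20 arrays that share diet groups and slides.

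Dock2, the Rac activator of leukocytes, was higher in HFoleic than in Ref on all 3 of its probes. The reported probe A_55_P2715446 (ENSMUST00000157036) read 8.09, 8.62 and 8.75 at the lowest, median and highest Ref mouse, and 9.19, 9.66 and 9.92 in HFoleic mice. HFepa mice read 8.36, 8.76 and 10.27. HFoleic did not overlap with Ref, while most HFepa mice lay in or near the Ref range. The log2 fold change was 1.10 in HFoleic vs. Ref (SE 0.26, adjusted p = 0.00398) and 0.51 in HFepa vs. Ref (SE 0.25, adjusted p = 0.248). Between the high-fat groups it was −0.60 (SE 0.25, adjusted p = 0.183), with a 95% interval from −1.11 to −0.08. Without HFepa mouse 1, the mouse with the highest value, that difference became −0.78 and passed the threshold (adjusted p = 0.0292). In that fit 2864 of all probes were called in HFepa vs. HFoleic, beside 1 with every array kept.

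The other Dock2 probes moved in the same direction. A_66_P108087, from the far part of the transcript, differed by 1.95 in HFoleic vs. Ref, and A_66_P138212, the junction probe shown above, by 1.00, with adjusted p of 0.00199 and 0.00198. In HFepa vs. Ref they differed by 0.84 and 0.48, with adjusted p of 0.223 and 0.178. After subtraction of the group means the 3 probes correlated at r = 0.90 to 0.95 over the 20 arrays. Within slides, the reported probe was higher in HFoleic than in Ref on each of the 3 slides, by 0.96, 1.50 and 1.01, with 1 HFoleic mouse on slide 2. The differences of HFepa from HFoleic on these slides were −0.24, −0.97 and −0.90.

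Dock5, another Rac activator that pairs with ELMO adaptors, is known from osteoclasts and mast cells. Its reported probe A_52_P88983 read 8.11, 8.51 and 9.03 at the lowest, median and highest Ref mouse and 9.07, 9.36 and 9.73 in HFoleic mice. HFepa mice read 8.43, 8.85 and 9.43. HFoleic lay just above Ref, by a gap between Ref mouse 7 and HFoleic mouse 1, and HFepa overlapped with both. The log2 fold change was 0.86 in HFoleic vs. Ref (SE 0.17, adjusted p = 0.00119) and 0.42 in HFepa vs. Ref (SE 0.16, adjusted p = 0.135). HFepa was lower than HFoleic by −0.44 (SE 0.16, adjusted p = 0.144). Without HFepa mouse 1 this difference was −0.51 (adjusted p = 0.0473), in the fit that called 2864 of all probes. A second probe to the same transcript, A_51_P223025, differed by 0.47 between HFoleic and Ref (adjusted p = 0.0370), and the probe to the cDNA AK053909 by 0.16 (adjusted p = 0.172). Within slides the reported probe was higher in HFoleic than in Ref by 0.89, 0.91 and 1.02. Of the 8 genes other than Dock8, Dock2 and Dock5 had higher HFoleic values without overlap, beside the 6.92% of all genes.

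Dock1, the founding member of the family and the partner of ELMO in the uptake of dead cells, showed no call. Its reported probe had group means of 11.65, 11.55 and 11.61 in Ref, HFoleic and HFepa mice. The log2 differences from Ref were −0.10 (SE 0.079) and −0.04 (SE 0.074), and those of its other 2 probes lay between −0.10 and 0.07. Dock4, of the subfamily that acts on Rac and Rap1, had means of 9.40, 9.59 and 9.64. HFoleic mice differed from Ref by 0.19 (adjusted p = 0.114), and HFepa mice by 0.24 (adjusted p = 0.112). One of its 8 tested probes, A_52_P682745, was called in HFoleic vs. Ref at a log2 fold change of 0.18 (adjusted p = 0.0429), a call lost with the slide as a block (0.19, adjusted p = 0.0546).

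Dock6, the other measured member of the Dock8 subfamily in the set, was not called in any comparison. Its reported probe read 12.94, 12.75 and 12.92 as group means, with log2 differences from Ref of −0.19 (adjusted p = 0.142) and −0.02 (adjusted p = 0.944). In HFepa vs. HFoleic it differed by 0.18 (adjusted p = 0.276). The HFoleic difference passed the threshold with the slide as a block (−0.23, adjusted p = 0.0480) and with array weights (−0.23, adjusted p = 0.0314). Dock3, a family member outside the set, was not called in any comparison, with differences from Ref of −0.29 and −0.26.

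The Cdc42 activators moved apart from one another. Dock10, found in lymphocytes and other leukocytes, was called in HFoleic vs. Ref on all 4 of its tested probes, with log2 fold changes from 0.41 to 0.69. Over all tested probes 30.8% were called in this comparison. The reported probe read 9.26, 9.50 and 10.03 at the lowest, median and highest Ref mouse, 9.88, 10.34 and 10.49 in HFoleic mice and 9.65, 9.99 and 10.45 in HFepa mice. All groups overlapped. Its log2 fold change was 0.67 in HFoleic vs. Ref (SE 0.15, adjusted p = 0.00280) and 0.46 in HFepa vs. Ref (SE 0.14, adjusted p = 0.0792). The second value passed the threshold without Ref mouse 7 (adjusted p = 0.0337), without HFepa mouse 3 (adjusted p = 0.0332) and for the mean over the probes of the gene (0.40, adjusted p = 0.0485). Without these mice 1731 and 2502 of all probes were called in HFepa vs. Ref, beside 892 with every array kept. HFepa vs. HFoleic gave −0.21 (adjusted p = 0.422). Within slides HFoleic was above Ref by 0.61, 0.81 and 0.76.

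Dock11 was the one member whose reported probe was called lower in HFoleic vs. Ref. Its reported probe read 12.38, 12.69 and 12.89 at the lowest, median and highest Ref mouse, 11.82, 11.94 and 12.75 in HFoleic mice and 12.04, 12.51 and 12.89 in HFepa mice. HFoleic mouse 1 stood at 12.75, inside the Ref range, while the other 5 HFoleic mice were at or below 12.09 and under all Ref mice. The log2 fold change was −0.58 in HFoleic vs. Ref (SE 0.15, adjusted p = 0.00750) and −0.20 in HFepa vs. Ref (adjusted p = 0.448). HFepa was higher than HFoleic by 0.38 (SE 0.14, adjusted p = 0.157), and without HFoleic mouse 1 by 0.52 (adjusted p = 0.0356). Without that mouse 1660 of all probes were called in HFepa vs. HFoleic, beside 1 with every array kept. The neighbouring probe A_55_P2038101 differed by −0.56 in HFoleic vs. Ref (adjusted p = 0.0107). The third probe, to ENSMUST00000145757, differed by −0.51 (adjusted p = 0.101). Within slides the reported probe differed between HFoleic and Ref by −0.27 on slide 1, which holds HFoleic mouse 1, and by −0.81 and −0.88 on the other slides.

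Dock9, a Cdc42 activator named zizimin, had group means of 13.58, 13.52 and 13.61 in Ref, HFoleic and HFepa mice, with adjusted p from 0.682 to 0.927 over the 3 comparisons. One of its 3 tested probes, A_66_P126972 (NM_134074), differed by −0.21 in HFoleic vs. Ref (adjusted p = 0.0497). Counting a gene as called where any of its tested probes was called gave 6 of the 8 genes other than Dock8 in HFoleic vs. Ref, against 36.4% of all genes. None of the 8 had such a probe in HFepa vs. Ref, against 3.06% of all genes and 2.26% of all probes.

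**Figure D3:**
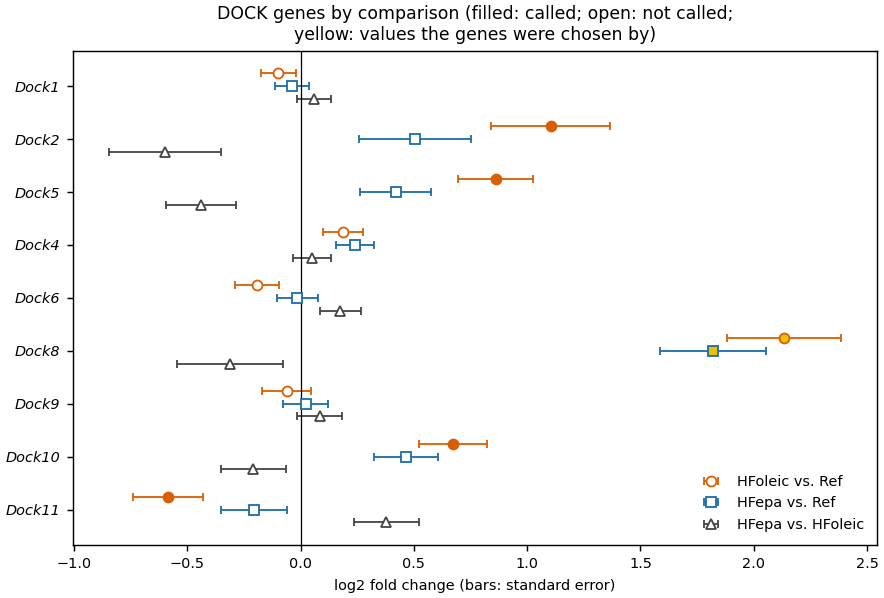
Log2 fold change of the reported probe of each DOCK gene (horizontal axis) with its standard error as bar, for the 3 comparisons. Filled markers were called, open ones were not, and the yellow Dock8 markers are the values the family was picked by. Dock2, Dock5, Dock10 and Dock11 have filled HFoleic markers, from −0.58 to 1.10, and no HFepa marker of these genes is filled.

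The members that were higher in HFoleic also varied together among mice of a group, as did some members that were not called. After subtraction of the group means, over 20 arrays, Dock5 and Dock10 correlated at r = 0.79, Dock2 and Dock5 at 0.74 and Dock2 and Dock10 at 0.68. Dock8 correlated at 0.65 with Dock10, 0.56 with Dock2 and 0.43 with Dock5. Among members whose reported probe was not called, Dock1 correlated at 0.62 with Dock9 and 0.52 with Dock6, and Dock6 at 0.46 with Dock9. Dock2 and the uncalled Dock4 correlated at 0.48. A background of pairs over all genes was not computed. Dock11 ran against Dock2 at r = −0.67. These are descriptions, since the arrays share slides and normalization.

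Macrophage marker RNA was higher in HFoleic mice too. The mean log2 level of 8 macrophage markers (Adgre1, Cd68, Csf1r, Mrc1, Cd14, Fcgr1, Itgam and Lyz2) was 11.53 to 11.93 in Ref mice, 12.38 to 13.49 in HFoleic mice and 11.46 to 13.50 in HFepa mice. Of these markers 6 were called higher in HFoleic vs. Ref, Cd14 and Itgam were not, and none was called in HFepa vs. Ref. All 9 markers of lipid-associated macrophages were called higher in HFoleic vs. Ref, and 1 of them, Fabp5, in HFepa vs. Ref. The general leukocyte gene Ptprc was not called in HFoleic vs. Ref (0.19, adjusted p = 0.167), while the other 4 genes of its list were higher. Of 8 T cell markers 1 was called higher, and of 5 B cell markers none, beside the 15.2% of all genes. In bulk tissue, more cells of a type and more RNA per cell cannot be told apart, and the part of cell content in the DOCK values was not tested. The paper states that this fat was taken from the epididymal area. Testis or epididymis markers were high on some arrays of each group. The testis list rests on 4 tested of 5 genes and the epididymis list on 2 of 4. The testis list read 8.27 and 8.41 in Ref mice 3 and 6, 9.06 in HFoleic mouse 5 and 8.10 in HFepa mouse 4, beside group medians of 6.37, 5.95 and 5.97. The epididymis list read 8.11 and 7.10 in Ref mice 3 and 6, 6.42 in HFoleic mouse 5 and 8.36 in HFepa mouse 2, beside medians of 5.68, 5.42 and 5.45, and whether such tissue bears on the DOCK values was not tested. Leaving out any 1 of the 20 arrays kept Dock2, Dock5, Dock10 and Dock11 called in HFoleic vs. Ref.

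HFepa mice 1 and 6 had the highest macrophage levels of the group (13.50 and 13.17), and the other 6 lay at or below 12.22. Dock2 followed the same mice, at 10.27 and 9.79 in mice 1 and 6 and at or below 9.03 in the other 6. The brightest Dock8 probe read 9.46 and 9.57 in mice 1 and 6, 9.57 in mouse 7 and 9.27 in mouse 4. On the other 3 tested Dock8 probes mice 1 and 6 were the highest of the HFepa mice, at 7.44 and 7.28 for A_55_P2728718 (next 7.13), 8.86 and 8.59 for A_65_P17641 (next 8.45) and 5.95 and 5.93 for A_52_P519673 (next 5.88). HFepa mouse 8 had the lowest macrophage level of all 20 mice, 11.46, and a Dock8 signal of 9.11. On the list of 9 markers of lipid-associated macrophages this mouse read 10.87, above the Ref range of 9.45 to 10.53. HFepa mice 3 and 5 lay inside the Ref range of that list, at 10.01 and 10.31. Their Dock8 signals were 8.27 and 8.90, above the highest Ref mouse (8.08). Of the HFepa mice, mouse 3 was lowest both on that list and on the brightest Dock8 probe. Mice 1, 6, 7 and 4 were highest on both, at 14.28, 13.51, 11.83 and 11.49 on the list. Whether that list bears on the Dock8 values was not tested. Dock11 was lowest among HFepa mice in mice 1 and 6, at 12.04 and 12.16.

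**Figure D4:**
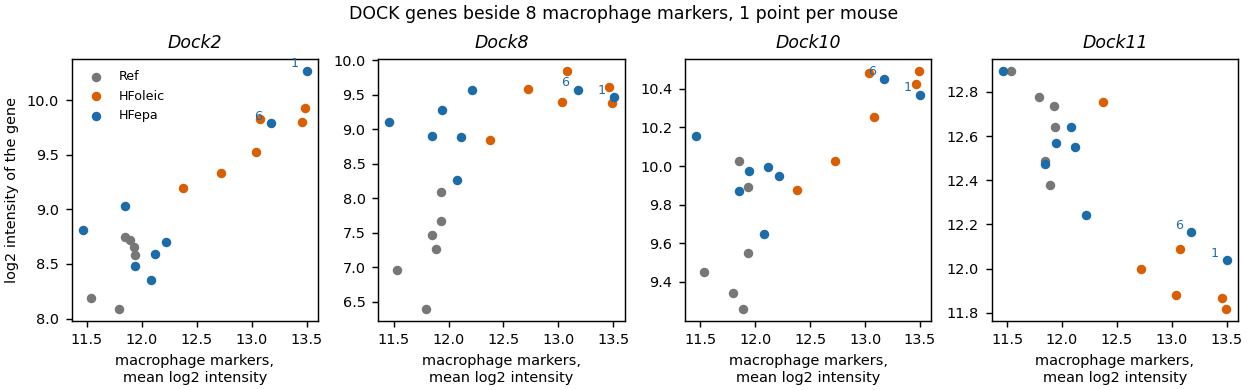
Log2 intensity of Dock2, Dock8, Dock10 and Dock11 (vertical axes) beside the mean log2 intensity of 8 macrophage markers (horizontal axes), with 1 point per mouse and HFepa mice 1 and 6 numbered. The 8 highest Dock2 values belong to the 6 HFoleic mice and HFepa mice 1 and 6, which also have the 8 highest marker levels, and the brightest Dock8 probe is at or above 8.27 in all 8 HFepa mice.

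The genes around the DOCK proteins were read from lists of 89 genes, each with a tested probe, in HFoleic vs. Ref with the background given above. Among 12 adaptors and partners, 5 were higher and 0 lower. Wipf1, a partner of the Wiskott-Aldrich protein that links it to Dock8, was higher by 0.61 (adjusted p = 0.00197). Elmo1, the adaptor of Dock2, was higher by 0.49 (adjusted p = 0.00297) and Was, which encodes that protein, by 1.15 (adjusted p = 0.00487). Among 9 GTPases, the substrates, 6 were higher and 0 lower. Cdc42 was higher by 0.63 (adjusted p = 0.000424), the leukocyte form Rac2 by 1.35 (adjusted p = 0.00441) and Rap1b by 0.35 (adjusted p = 0.00986). In HFepa vs. Ref no gene of either list was called, with Cdc42 at 0.31 (adjusted p = 0.0707) and Rac2 at 0.58 (adjusted p = 0.293).

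The Dbl family, which activates Rac and Cdc42 by another catalytic domain, was mixed. Of 22 genes 11 were higher and 5 lower in HFoleic vs. Ref. Vav3 was higher by 0.81 (adjusted p = 0.000657), Prex1 by 0.99 (adjusted p = 0.00138) and Arhgef7 by 0.37 (adjusted p = 0.00226). In HFepa vs. Ref Vav3 (0.58, adjusted p = 0.0304) and Tiam1 (0.66, adjusted p = 0.0481) were called higher, the only calls among the 89 genes in that comparison, where 1.03% of all genes were called higher. Both lie between the Ref and HFoleic means, and neither was called in HFepa vs. HFoleic (adjusted p of 0.344 and 0.664).

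Among 19 GTPase-activating proteins and GDP dissociation inhibitors, which oppose the exchange factors, 8 were higher in HFoleic vs. Ref and 1, Srgap2, was lower (−0.74, adjusted p = 0.0394). Arhgap25 was higher by 2.62 (adjusted p = 0.00102), Arhgap9 by 1.59 (adjusted p = 0.00220) and Arhgdib by 1.02 (adjusted p = 0.00327), all 3 known mainly from blood cells. Of 27 effectors in the PAK, WAVE and Arp2/3 list, which turn active Rac and Cdc42 into branched actin, 15 were higher and 0 lower. Arpc1b was higher by 0.70 (adjusted p = 0.00123), Nckap1l, the blood cell form of its WAVE subunit, by 2.03 (adjusted p = 0.00139) and Actr2 by 0.55 (adjusted p = 0.00143). Of the Rac-dependent NADPH oxidase of phagocytes, the subunits Ncf4 and Cybb were higher by 1.89 and 1.78 (adjusted p of 0.00173 and 0.00241). In HFepa vs. HFoleic none of the 89 genes was called.

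**Figure D5:**
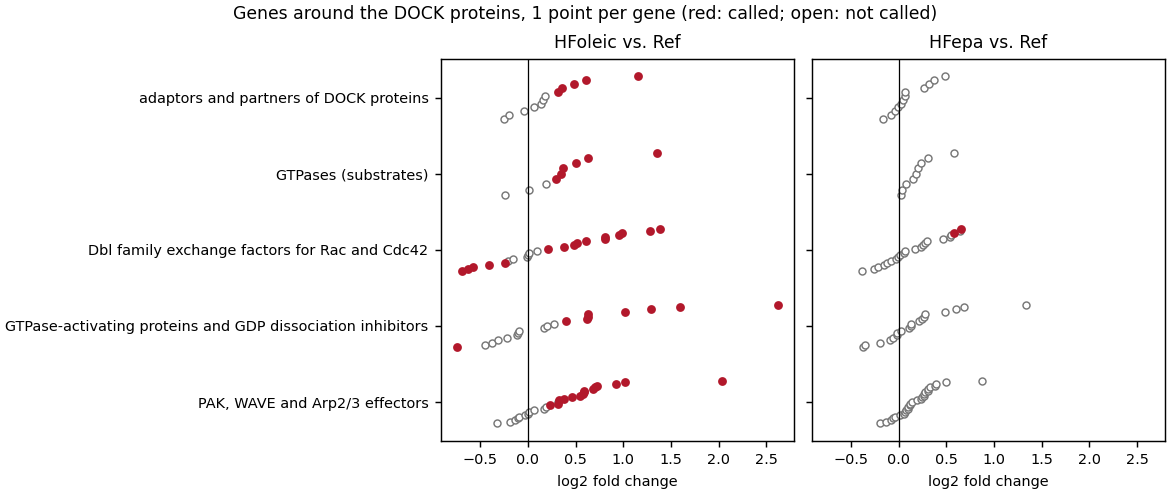
Log2 fold change of each gene of 5 lists around the DOCK proteins (horizontal axis) in HFoleic vs. Ref and HFepa vs. Ref, with called genes in red and others open. The lists of GTPases, adaptors and PAK, WAVE and Arp2/3 effectors have called genes only to the right of 0 in HFoleic vs. Ref, and 2 genes are red in HFepa vs. Ref.

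The windows around the gene starts were searched in the RefSeq promoter sequences of assembly GRCm38.p6, which are windows of 300 bases that span a gene start, 11 of them for 8 of the 9 genes. Dock5 was not matched. The searched letters were GGAAGT, a core read by ETS factors such as the leukocyte factor PU.1, on both strands. They were in 6 of the 11 DOCK windows, of 6 different genes, and in 23.8% of all 32851 windows. The 6 genes were Dock2, Dock4, Dock8, Dock9, Dock10 and Dock11, so the letters were in genes with higher, lower and uncalled signal alike. Stretches of 30 bases around the match are shown for Dock2 and Dock8, whose values are given most fully above, with the 6 letters in capitals. The Dock2 stretch is chr11:34783891-34783920 (minus strand) and the Dock8 stretch chr19:24999507-24999536 (plus strand), with the match starting 3 and 10 bases before the gene start.
Dock2 promoter: taaaaagaggaaGGAAGTggggccctgcaa
Dock8 promoter: aggtggaaatgcGGAAGTttccgcggcgcg

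The promoter windows of these genes differ in base composition. The Dock8 window held 52 CG dinucleotides and 78.0% G and C, and the Dock2 window 5 CG dinucleotides and 54.3%, beside a median of 7 and 52.7% over all windows. A match in these letters is a description of the sequence and was not measured as binding.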

How the data were processed

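RNA of VAT was hybridized to 20 one-colour Agilent arrays. Per the file headers, the authors extracted spot intensity values with Agilent Feature Extraction 10.10.1.1, and the median intensity, as deposited, is on a linear scale, not normalized. A deposited table of the authors' quantile-normalized log2 values for 38168 probes served as an alternative. Its values correlate with the log2 median intensity of each array at r of at least 0.9997.

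Control spots were left out and spots marked as outliers were set missing. Probes well above background on at least 6 arrays were kept (39391 of 56605), and log2 median intensities were quantile normalized and averaged per probe in R 4.3.3. Per array 66.1% to 71.9% of spots lay well above background, the median signal was 83 to 114, and no DOCK spot was saturated. Group means over all 20 arrays were compared with lmFit and eBayes of limma 3.58.1, and p-values were adjusted by Benjamini-Hochberg over every probe tested (threshold 0.05). The limma fit, but not the steps before it, was tested on simulated data. Each p-value sets a difference of group means against the spread between mice within groups. That spread was pooled over all groups and drawn toward that of all probes. The number of arrays limits the precision. Background fluorescence was not subtracted, which lowers the fold change of dim probes.

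The DOCK genes and all lists were chosen with earlier results of these data known. The genes named were the 9 DOCK genes, the 5 closest to Dock8 by each measure, the 3 called genes of smallest p in each list in HFoleic vs. Ref, and every list gene called in the other comparisons where these were 10 or fewer. Srgap2 and the marker genes named were chosen after their values were seen, beside their counts. Some genes of the lists are not reported here. The array files give probe coordinates on mm9. Plots were drawn with matplotlib 3.10.9. Alternatives were the signal, background and normalization settings, filters, blocks, weights, the compared groups only, the mean over probes, and each array left out. Added after seeing the data was a count of genes with any called probe.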

Additional observations from a re-analysis of the deposited data

Results flagged for a closer look

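HFoleic mouse 1 stood apart from its group in Dock11. Its value was 12.75, the next HFoleic mouse read 12.09, and this gap made up 0.709 of the range of the 6 mice. The same mouse had the lowest macrophage level of its group, 12.38, and whether this bears on its Dock11 value was not tested. Of 27 groups of values examined, 9 genes in 3 groups, this was the single such sample, and chance gives about 1 in 20.

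Some DOCK probes left out of the tests as too dim were well above background on arrays of high-fat mice and on 0 of the 6 Ref arrays. The Dock8 probe A_52_P282200, to the cDNA AK035336, was so on 3 of 6 HFoleic arrays. The Dock10 probe A_51_P170603 was so on 1 HFoleic array, and A_55_P2719214 on 1 HFoleic and 1 HFepa array.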

How the results depend on the processing

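Besides Dock8, which was picked on its values against Ref, 4 DOCK genes were called in HFoleic vs. Ref. This count ranged from 3, with the replicate block, to 6, where any called probe counted, and was 4 with each array left out. In HFepa vs. Ref it was 0 and became 1 with each gene's probes averaged and when Ref mouse 7 or HFepa mouse 3 was left out. With Dock8, these counts of HFepa vs. Ref were 1 and 2, and with 1 array left out those of HFoleic vs. Ref stayed at 5. In HFepa vs. HFoleic the count of 0 became 3 with array weights and ranged from 0 to 2 with 1 array left out. The cause was not tested. With array weights the 3 genes were Dock2 (−0.72, adjusted p = 0.0316), Dock5 (−0.47, adjusted p = 0.0341) and Dock11 (0.42, adjusted p = 0.0349), while 4304 of all probes were called there, beside 1 without weights and 1294 with the slide as a block.

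Dock8 moved beyond its replicate spread with its probes averaged, to 1.12 in HFoleic vs. Ref and 0.95 in HFepa vs. Ref. Small differences changed sign. Dock9 in HFoleic vs. Ref was 0.0034 with median centring, and in HFepa vs. Ref −0.015 for the mean over probes. Dock6 in HFepa vs. Ref was 0.0081 with median centring and 0.0068 for the mean over probes. With 1 array left out, HFepa vs. Ref ranged from −0.066 to 0.0093 for Dock1, from −0.066 to 0.013 for Dock6 and from −0.028 to 0.070 for Dock9. All other differences of the 9 genes kept their direction under the alternatives run.

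The labels do not say whether replicate numbers pair the mice, so no pairing was used in the main fit. Deviations of mice with the same number correlated at −0.59 to 0.56 over 16 pairs (median −0.08). Those of mice with other numbers correlated at −0.48 to 0.80 (median 0.01). Such correlations cannot decide whether mice were paired. With the replicate block the Dock2 call in HFoleic vs. Ref was lost (0.94, adjusted p = 0.0568), 7872 probes were called in HFoleic vs. Ref in place of 12147, 25 in HFepa vs. Ref in place of 892 and 0 in HFepa vs. HFoleic. Probes called in HFepa vs. Ref ranged from 130 to 2502 with 1 array left out and were 140 in a fit to the compared groups only, 582 with median centring, 583 without the filter and 1454 with array weights. In HFepa vs. HFoleic they ranged from 0 to 2864 with 1 array left out. The number of arrays and the dimness of Dock8 probe A_52_P519673 in Ref limit what these values can resolve.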

Other observations

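Lists of other cell types gave these counts in HFoleic vs. Ref. Of 7 adipocyte markers 3 were lower and 0 higher, among them Lipe, the hormone-sensitive lipase, by −1.19 (adjusted p = 0.000517). Of 5 tested dendritic cell markers 3 were higher and 1 lower, of 4 natural killer cell markers 2 were higher, and of 5 tested neutrophil markers 1 was higher and 1 lower. Of 5 progenitor and fibroblast markers 1 was higher, Col1a1, a fibrillar collagen chain, by 1.49 (adjusted p = 0.000453). None of 6 mast cell, 6 endothelial or 5 mesothelial markers was called. In HFepa vs. Ref and HFepa vs. HFoleic none of these was called. Their part in the Dock8 signal was not tested.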
